A study of Rattus norvegicus with 96 samples.

Results

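The genes described here belong to families known for holding, docking and fusing synaptic vesicles, though some of their members serve other membrane fusion. They are the synaptotagmins (Syt), syntaxins (Stx), syntaxin-binding proteins (Stxbp), vesicle-associated membrane proteins (Vamp), SV2 proteins and complexins (Cplx). SNAP-25, synapsins 1 and 2, synaptophysin and the Rab3 proteins complete the set. Every probe set that the platform annotation gave to 1 gene symbol of these families was taken, which yielded 80 of 31042 probe sets and 53 of 14217 genes. They were measured in the central nucleus of the amygdala, a forebrain nucleus that takes part in fear, stress and drug-related behaviour, on 96 arrays with 1 rat each. The rats came from 5 pairs of lines selected for high or low alcohol preference, named here with the alcohol-preferring line first: HAD1 (9 arrays) with LAD1 (10), HAD2 (10) with LAD2 (10), P (10) with NP (10), AA (10) with ANA (10), and sP (8) with sNP (9). No treatment, age or sex is given in the labels used here. A selected line shares descent, so a difference within 1 pair cannot be told apart from drift between 2 lines. All values are log2 intensities, and a difference is the preferring line minus the non-preferring line of the same pair.

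At a nerve terminal, a vesicle VAMP pairs with syntaxin and SNAP-25 on the plasma membrane to form the SNARE complex that drives fusion. Synaptotagmins bind calcium and trigger the fusion, complexins hold and then assist the assembled complex, and syntaxin-binding proteins chaperone syntaxin. Rab3 proteins bring vesicles to release sites, while synapsins tether the reserve pool and SV2 proteins and synaptophysin are part of the vesicle membrane. Neurons of the central amygdala release GABA and peptides through this machinery.

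Several arrays stood apart and bear on what follows. Each array was scored on the 100 probe sets that best separate the lines of its pair, once on odd-numbered and once on even-numbered chromosomes. On both scores 15 arrays lay on the side of the other line, and they are called doubted here: HAD1 28 and LAD1 37, P 1, P 9, NP 1 and NP 9, AA 15, AA 17, AA 19, ANA 16 and ANA 18, and sP 2, sP 9, sNP 8 and sNP 9. Results are given with all arrays as labelled and also without these 15, a step that enlarges differences between lines by construction. LAD1 36 carries contradictory line labels and was kept as LAD1, and sP 2 and sNP 2 were nearly identical, with an SD of 0.09 between their values. P 5 had a mean log2 value of 11.17 over 8 choroid plexus genes, against at most 7.56 on any other array. The log2 ratio of 3' to 5' GAPDH probe sets was 3.33 to 4.09 as a line mean in the HAD and LAD lines and 0.20 to 0.43 in the other lines, so levels were compared within pairs. The 15 general neuron markers had mean log2 values between 12.20 and 12.74 in every line, and 0 of 15 passed limma's test in any pair. Of the central amygdala markers, Prkcd lay between 9.01 and 9.81 as a line mean Sst between 9.02 and 13.29 and Crh between 6.75 and 9.89.

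Of the vesicle and exocytosis genes, a single one, Syt12, passed the test within a pair with all arrays as labelled. With limma fitted on each pair and Benjamini-Hochberg adjustment over all 31042 probe sets at 0.05, 1 of 80 members was called in HAD2 against LAD2, against a background of 4.09% of all probe sets. At an unadjusted p under 0.05 were 8 members in that pair, beside 5079 of all probe sets. In HAD1 against LAD1, 5 members had an unadjusted p under 0.05, beside 3426 of all probe sets. In this pair 0 of 80 were called by limma (background 0.963%). The 299 probe sets behind that background became 600 without HAD1 28 and 477 without LAD1 37, between 157 and 192 without any 1 of HAD1 21, 23, 24, 25 and 29 or LAD1 32, 33, 34, 35 and 36, and 4 when LAD1 36 was counted as HAD1. In P against NP, AA against ANA and sP against sNP 0 members were called and the background was 0%. These counts are therefore not particular to the members. In these pairs 2, 3 and 2 members had an unadjusted p under 0.05, beside 1523, 1528 and 1341 of all probe sets. For the mean of the 5 differences limma called 0 of 80 (background 0.986%). For this mean 2 members had an unadjusted p under 0.05, beside 2420 of all probe sets. Of 80 members, 2 had differences that varied among the pairs by limma's F test, Syt12 and Rab3c (background 4.54%). In the F test 7 members had an unadjusted p under 0.05, beside 4551 of all probe sets. Without the doubted arrays the members called were 1 in HAD1 and LAD1 (Stx11; background 2.56%), 1 in HAD2 and LAD2 (Syt12; 4.09%), and 0 by limma in P and NP (1.62%; 3 at an unadjusted p under 0.05), AA and ANA (1.8%; 17) and sP and sNP (1.75%; 7). Over all probe sets, 2792, 3909 and 3245 had an unadjusted p under 0.05 in P, AA and sP in that setting. For the mean the count was 0 (2.9%), with 3 members at an unadjusted p under 0.05, beside 3518 of all probe sets. For variation among pairs the count was 3 (10.5%), with Sv2b added. In none of these comparisons was the share of members called above the background.

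The intervals and medians given here come from all arrays as labelled, the doubted arrays included. If a doubted array belongs to the other line of its pair, it shrinks the differences. The intervals would then not bound how large a difference could have been missed. Whether any doubted array does so was not tested, and intervals without these arrays were not counted. The 95% interval of the difference lay inside 2-fold in either direction for 79 of 80 members in HAD1 and LAD1, 79 in HAD2 and LAD2, 79 in P and NP, and 80 in each of the other pairs. It lay inside 1.5-fold for 76, 76, 72, 78 and 77 members in the order of HAD1, HAD2, P, AA and sP. The median difference of the members was -0.00 in HAD1, -0.01 in HAD2, 0.01 in P, 0.02 in AA and 0.01 in sP. Over all probe sets the medians were -0.00, -0.01, -0.00, 0.01 and -0.01. The median absolute difference of the members was 0.06, 0.06, 0.05, 0.07 and 0.04, against 0.06, 0.07, 0.05, 0.06 and 0.04 over all probe sets. For the mean of the 5 differences it was 0.034 for the members and 0.025 over all probe sets. Signs were mixed: 1 probe set, of Syt17, was higher in the preferring line in all 5 pairs, and none was lower in all 5, differences that need not pass a test. The other Syt17 probe set was higher in 3 pairs and lower in 2. Signs were not counted over all probe sets, so these counts have no background.

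**Figure D1:**
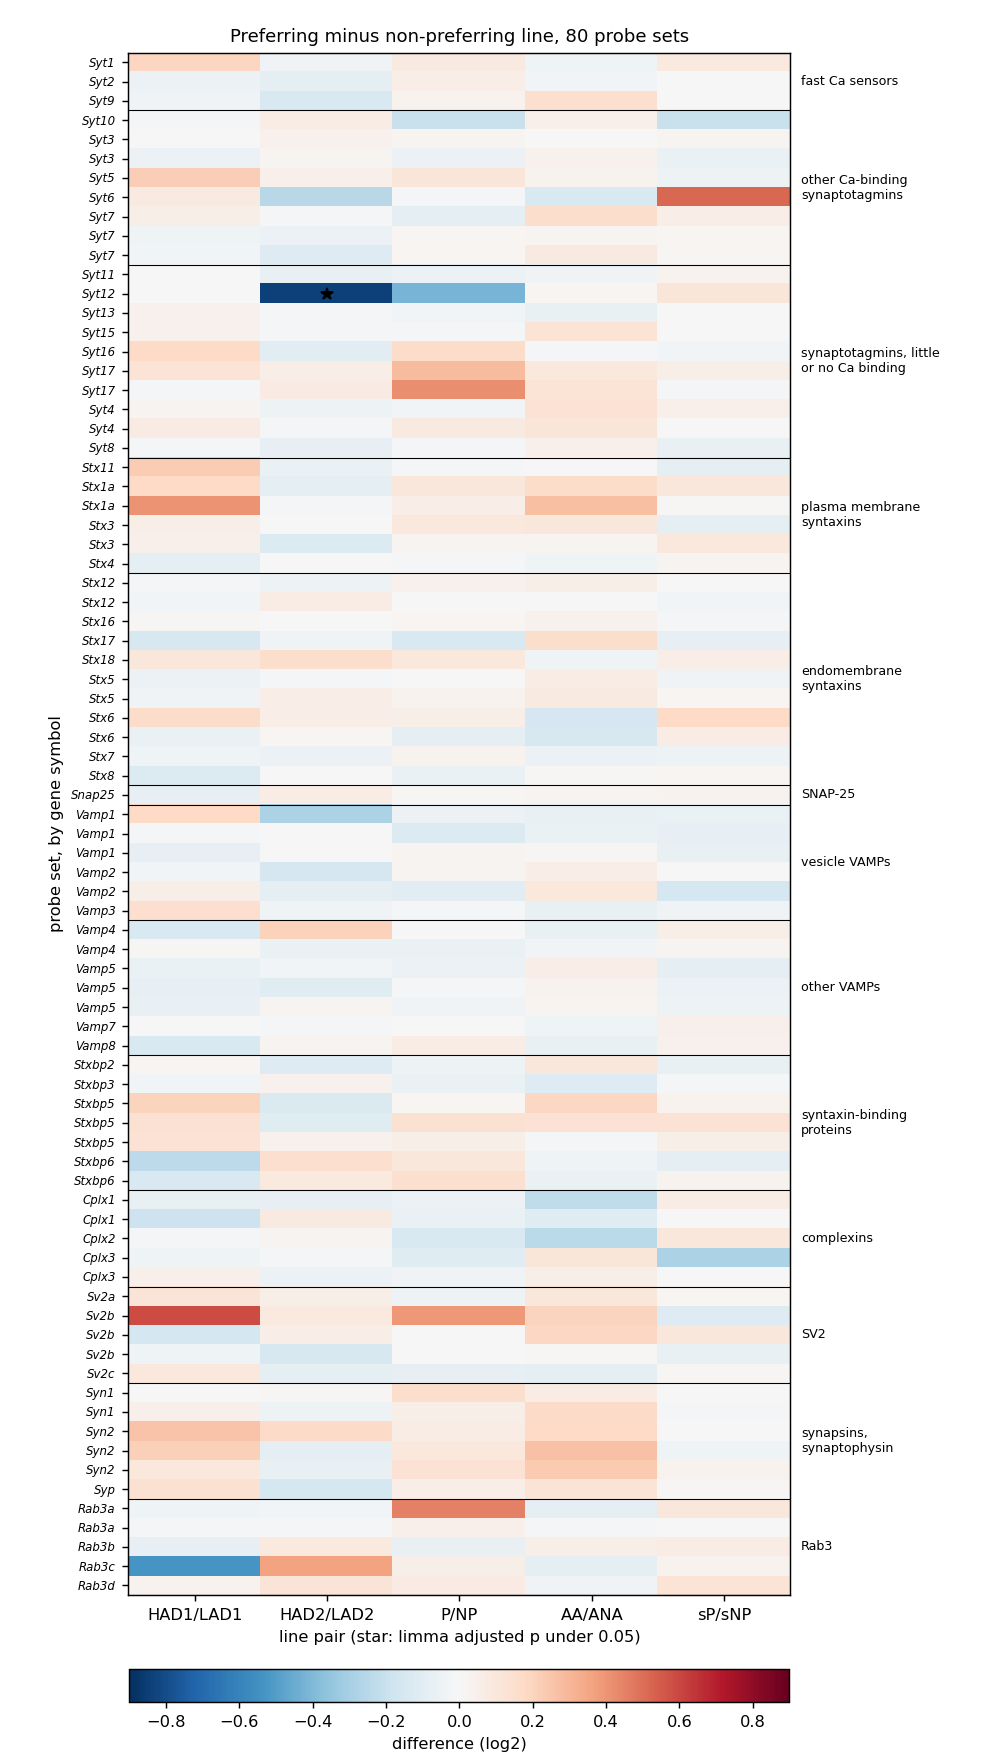
Differences between preferring and non-preferring lines in log2 units for the 80 probe sets (rows, by gene symbol and grouped by role) in the 5 line pairs (columns); red is higher and blue lower in the preferring line, and a star marks a limma adjusted p under 0.05. The only star is Syt12 in HAD2 and LAD2, at -0.84; all other cells lie between -0.53 and 0.58.

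Syt12 encodes a synaptotagmin that binds little or no calcium and is found on synaptic vesicles. Its probe set, on chromosome 1, had values of 7.28, 8.11 and 8.42 (lowest, median and highest) on the 10 HAD2 arrays and 8.28, 8.86 and 9.32 on the 10 LAD2 arrays. Only HAD2 4, at 8.42, lay above the lowest LAD2 array, LAD2 17 at 8.28, and the other 9 HAD2 arrays lay below every LAD2 array. The means were 8.01 ± 0.32 (SD, n = 10) and 8.85 ± 0.29 (SD, n = 10), a difference of -0.84 (SE 0.13), 1.79-fold lower in HAD2 (limma adjusted p = 9.67e-05). The call held when each of the 20 arrays was left out in turn, with differences between -0.90 and -0.76, and with the GAPDH ratio as a covariate, at -0.90 (adjusted p = 1.15e-07).

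Syt12 did not show this difference in every pair. In P the values ran from 7.59 through a median of 8.16 to 8.71, and in NP from 8.05 through 8.56 to 9.01. P was lower on average by -0.42 (SE 0.12), which did not pass (limma adjusted p = 0.503), and was -0.43 without the doubted arrays (adjusted p = 0.247). The lowest P array was P 5, the array with high choroid plexus genes, and without it the difference was -0.36 (adjusted p = 0.7). HAD1 and LAD1 had the same mean, 8.03, with SDs of 0.46 and 0.33. AA and ANA were at 7.75 ± 0.45 and 7.73 ± 0.38, and sP and sNP at 8.05 ± 0.28 and 7.93 ± 0.22. The mean of the 5 differences was -0.23 (SE 0.07; limma adjusted p = 0.0933) and -0.17 without the doubted arrays (adjusted p = 0.276). It passed when either HAD1 25 or ANA 12 was left out, with adjusted p = 0.0293 and 0.0448. The 5 differences varied among pairs (F = 7.003; limma adjusted p = 0.00285), and did so with each array left out in turn.

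Other measurements were set beside the Syt12 difference. Of the 10 measured genes on each side of Syt12 in GRCr8 gene order, 1 of 20 was called in HAD2 and LAD2, Pold4, a DNA polymerase subunit, which was higher. No general neuron marker passed in this pair, as given above. Of the microglial markers 2 of 12 passed, Cx3cr1 at -0.30 and P2ry12 at 0.64. Of the vascular markers 3 of 11 passed (Tek at -0.28, Abcb1a at 0.66 and Rgs5 at 0.42), and of the astrocyte markers 1 of 10, Gjb6 at 0.28. The choroid plexus genes were lower in HAD2 for 8 of 8, none past the test, and their mean over the 8 genes ran from 6.55 to 6.76 in HAD2 and from 6.60 to 7.56 in LAD2. LAD2 11 had the highest Syt12 value, 9.32, and the lowest choroid plexus mean of the LAD2 arrays, 6.60. LAD2 16 and LAD2 12 had the next highest Syt12 values, 9.06 and 9.04. Their choroid plexus means, 7.30 and 7.56, were the highest of the LAD2 arrays. The part of these cell types in the Syt12 difference was not tested, and in tissue RNA fewer cells of a type and less RNA per cell cannot be told apart.

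**Figure D2:**
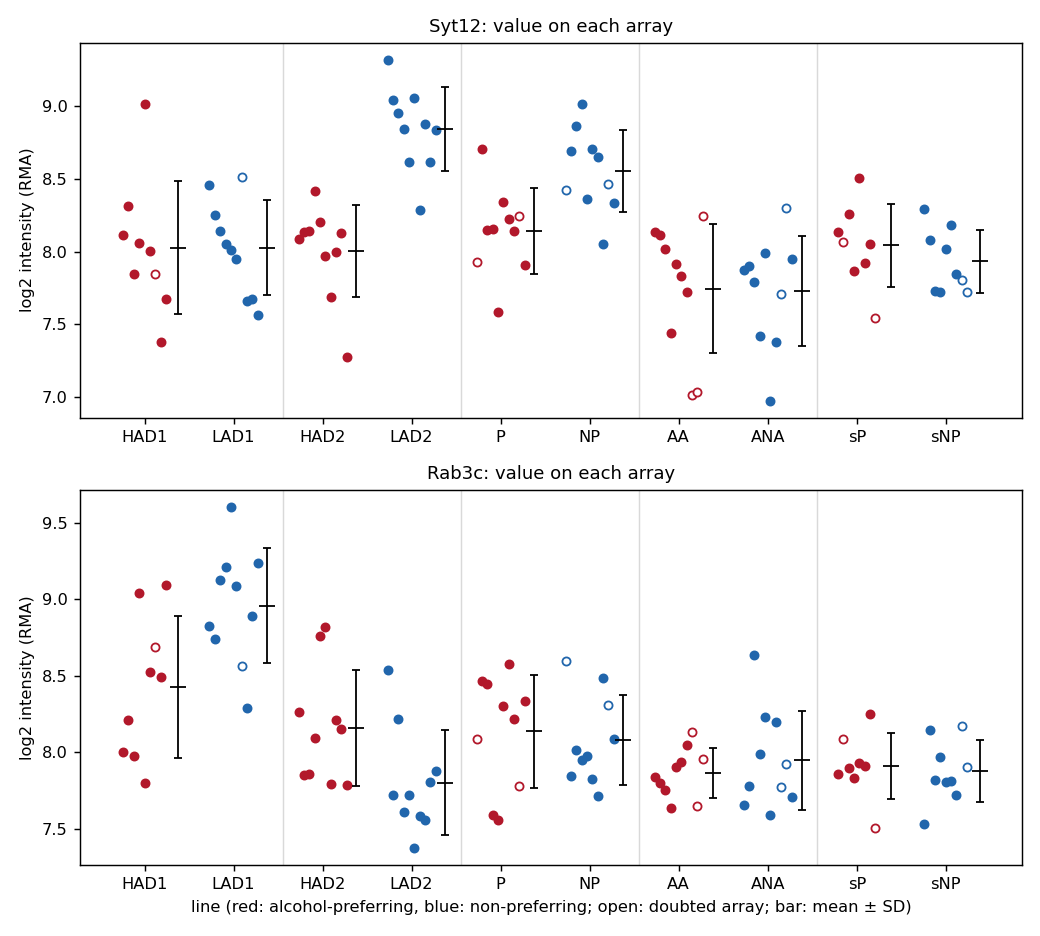
Log2 intensity of Syt12 (upper panel) and Rab3c (lower panel) on each of the 96 arrays by line; red points are preferring and blue points non-preferring lines, open points are doubted arrays, and bars are the mean ± SD over all arrays of a line. For Syt12 HAD2 lies at 8.01 and LAD2 at 8.85 with 1 HAD2 array above the lowest LAD2 array; for Rab3c HAD1 lies below LAD1 and HAD2 above LAD2.

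The other synaptotagmins were called in no pair. Syt1, Syt2 and Syt9, the fast calcium sensors, had differences between -0.14 and 0.19 over the 5 pairs. Their probe sets were dim, with mean log2 values over all arrays of 7.16, 5.73 and 6.32, against 14.42 for Snap25. How well these probe sets read their genes was not tested, so small differences here may say little about the genes. Syt1, the main sensor of fast release in forebrain neurons, differed by 0.19 (SE 0.12) in HAD1, -0.03 in HAD2, 0.08 in P, -0.04 in AA and 0.09 in sP. Syt9 was 6.10 ± 0.14 in AA and 5.95 ± 0.12 in ANA, a difference of 0.15 that did not pass (limma adjusted p = 0.968), and it was -0.14 in HAD2. The 8 probe sets of the other calcium-binding members, Syt3, Syt5, Syt6, Syt7 and Syt10, lay between -0.25 and 0.52. The extreme was Syt6 in sP, where values ran from 6.90 through a median of 7.38 to 8.31, against 6.29, 6.88 and 7.71 in sNP. These ranges overlapped, with 3 of 8 sP arrays above every sNP array. The difference was 0.52 (SE 0.20; limma adjusted p = 0.9998), and 0.69 without the doubted arrays (adjusted p = 0.16). Striatal markers stood beside it: 11 of 11 were higher in sP, with a median difference of 0.28 and none called. Their part was not tested. The remaining 9 probe sets of synaptotagmins with little or no calcium binding were called in no pair, and the highest was Syt17 in P at 0.41.

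Plasma membrane syntaxins were read by 6 probe sets of 4 genes. In HAD1 5 of 6 were higher than in LAD1, with a median difference of 0.11, and none passed. Stx11, a syntaxin better known from immune cells than from neurons, was the nearest to a call. Its probe set was dim, with a mean log2 value of 5.155 over all arrays. How well it reads the gene was not tested. Its values were 5.23, 5.38 and 5.59 (lowest, median and highest) on the 9 HAD1 arrays and 4.93, 5.18 and 5.31 on the 10 LAD1 arrays. Of the HAD1 arrays 5 of 9 lay above every LAD1 array, and each of the 9 lay above the LAD1 mean. The difference was 0.23 (SE 0.06; limma adjusted p = 0.0596). It passed without the doubted arrays HAD1 28 and LAD1 37, at 0.26 (adjusted p = 0.0139), and when either of these was left out. In the other pairs Stx11 differed by -0.06 in HAD2, -0.01 in P, 0.00 in AA and -0.08 in sP, and its variation among pairs did not pass (adjusted p = 0.204). Beside it, microglial markers were lower in HAD1 for 12 of 12, with Cx3cr1 (-0.40) and C1qc (-0.48) called and a median difference of -0.17. Their part was not tested.

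Both probe sets of Stx1a, the syntaxin of the neuronal SNARE complex, were higher in HAD1 on average. The first was 6.32 ± 0.11 (SD, n = 9) in HAD1 and 6.14 ± 0.08 (SD, n = 10) in LAD1, a difference of 0.18 (SE 0.05; limma adjusted p = 0.0916). The brighter one was 8.97 ± 0.45 and 8.57 ± 0.33, a difference of 0.41 (SE 0.16; adjusted p = 0.313). Neither passed, and in HAD2 the differences were -0.09 and -0.01. In AA they were 0.17 and 0.27. The brighter probe set in P had 1 array, P 9, at 10.79 and the next at 9.14; P 9 is a doubted array, and the difference of 0.06 became -0.15 without it and -0.08 without all 4 doubted arrays of P and NP.

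The endomembrane syntaxins, which act in the Golgi, endosomes and endoplasmic reticulum, had 11 probe sets of 8 genes with differences between -0.15 and 0.18 and none called. Stx18, a syntaxin of the endoplasmic reticulum, was 10.15 ± 0.13 in HAD2 and 9.99 ± 0.06 in LAD2 (n = 10 each), a difference of 0.16 (SE 0.05; limma adjusted p = 0.112). HAD2 arrays ran from 9.96 to 10.38 and LAD2 arrays from 9.91 to 10.12, with 6 of 10 HAD2 arrays above every LAD2 array. With the GAPDH ratio as a covariate Stx18 passed, at 0.17 (adjusted p = 0.00904). Its mean over pairs was 0.07 (SE 0.03; adjusted p = 0.261). Stx17 in P differed by -0.14 and Stx6 in sP by 0.18, neither past the test.

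The partners of syntaxin in the SNARE complex were close to level. Snap25 differed by at most 0.08 in either direction: -0.08 in HAD1, 0.07 in HAD2, 0.01 in P, 0.02 in AA and 0.03 in sP. Its 95% intervals reached -0.35 in HAD1 and no further than 0.13 in HAD2, 0.10 in P, 0.11 in AA and 0.11 in sP. Vamp2, the main synaptic vesicle VAMP, was 11.81 ± 0.14 in HAD2 and 11.96 ± 0.14 in LAD2, a difference of -0.15 (SE 0.06; limma adjusted p = 0.214). The same probe set differed by -0.02, 0.03, 0.06 and 0.00 in HAD1, P, AA and sP. The second Vamp2 probe set differed by -0.16 in sP (adjusted p = 0.9998). All 6 probe sets of vesicle VAMPs lay between -0.28 and 0.18, none called. The 7 probe sets of Vamp4, Vamp5, Vamp7 and Vamp8, which serve endosomal and non-neuronal fusion, lay between -0.14 and 0.21. Vamp5 had a mean over the 5 pairs of -0.04 (limma adjusted p = 0.746), which did not pass.

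Regulators of SNARE assembly were not called either. The 7 probe sets of Stxbp2, Stxbp3, Stxbp5 and Stxbp6 ranged from -0.23 to 0.20. Stxbp5, tomosyn, which competes for syntaxin, had a difference of 0.19 (SE 0.08; limma adjusted p = 0.983) in AA, where 10.73 ± 0.23 stood against 10.54 ± 0.14 in ANA. Its other probe sets had means over the 5 pairs of 0.09 and 0.05 and did not pass. Among the complexins, Cplx2 was 12.33 ± 0.27 in AA and 12.57 ± 0.18 in ANA, a difference of -0.24 (SE 0.10; adjusted p = 0.929), and without the doubted arrays -0.34 (adjusted p = 0.175). AA arrays ran from 11.93 to 12.70 and ANA arrays from 12.25 to 12.88, with 4 of 10 AA arrays below every ANA array. All 5 complexin probe sets, of 3 genes, were lower in P than in NP, by 0.04 to 0.14, and none passed. Cplx1, the complexin of fast synapses, differed by -0.18 in HAD1, 0.08 in HAD2, -0.06 in P, -0.11 in AA and -0.00 in sP.

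**Figure D3:**
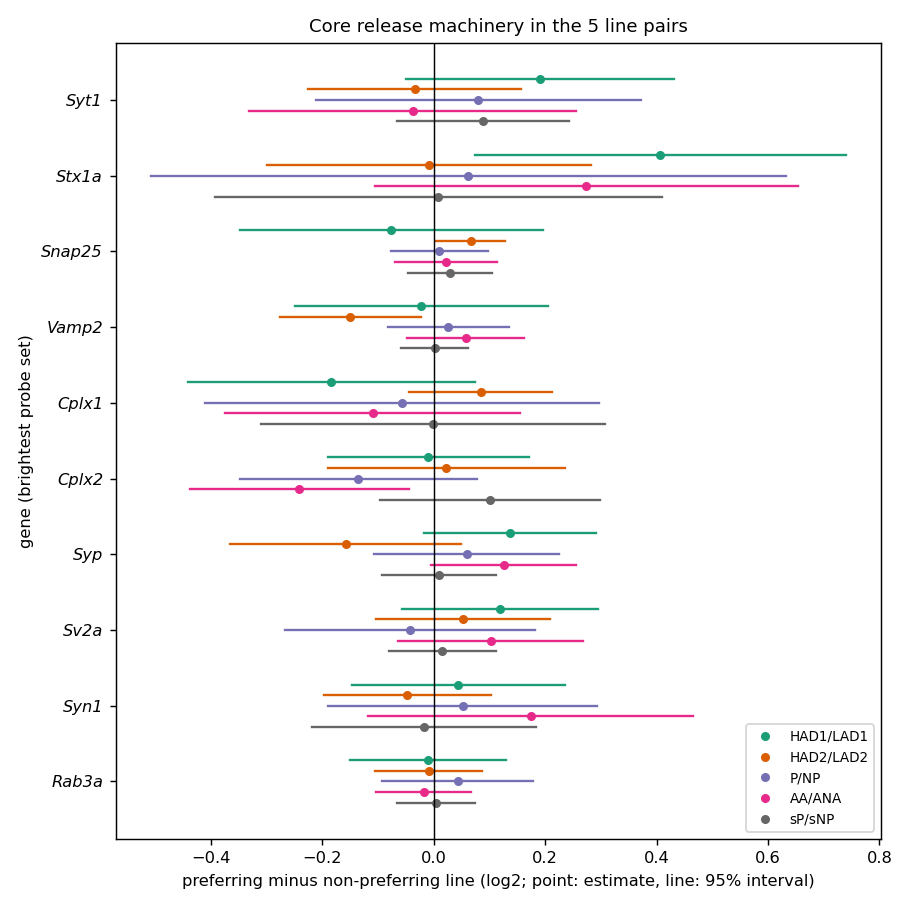
Differences in log2 units with 95% intervals for the brightest probe set of 10 core release genes in the 5 line pairs; each colour is a pair and the vertical line is no difference. The points for Rab3a lie within 0.04 of 0, while the Stx1a interval reaches 0.74 in HAD1; none of these differences passed limma's test.

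Among the vesicle membrane and vesicle pool proteins, the synapsins and synaptophysin were read by 6 probe sets of only 3 genes. All 6 had the same sign in 2 pairs, and in HAD1 5 of 6 were positive. Probe sets of 1 gene on the same arrays are not independent of each other. In AA they were higher than in ANA by 0.07 to 0.26 and in P higher than in NP by 0.05 to 0.16, and none passed. The 3 probe sets of Syn2, synapsin 2, had the largest of these differences in AA. The brightest was 11.62 ± 0.41 in AA and 11.36 ± 0.28 in ANA (SD, n = 10 each), with AA values from 10.96 to 12.38 and ANA values from 10.88 to 11.80. Without the doubted arrays the 3 Syn2 differences were 0.39, 0.40 and 0.38 (limma adjusted p = 0.244, 0.149 and 0.157), and Syp differed by 0.19 (adjusted p = 0.135). In that setting 17 of 80 members had an unadjusted p under 0.05 in AA and ANA, beside 3909 of 31042 probe sets, and none of the 17 was called. In P the common sign did not hold without the doubted arrays, where 1 probe set each of Syn1 and Syn2 was at -0.02. In HAD2 the signs were split, with 2 of 6 positive, and in sP 3 of 6. Beside this, AA had the higher value for 11 of 15 general neuron markers and 6 of 7 cortical and basolateral excitatory markers (median 0.11). In contrast, AA was higher for only 1 of 11 striatal markers (median -0.23) and only 1 of 13 oligodendrocyte markers (median -0.14). P had the higher value for 5 of 7 of the excitatory markers with all arrays and 0 of 7 without the doubted arrays. None of these markers was called. Their part was not tested.

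The 5 probe sets of the SV2 proteins were called in no pair. One Sv2b probe set had the widest interval of all members, with a difference of 0.58 (SE 0.37) in HAD1 and 0.39 (SE 0.46) in P. Another, the brightest, was called for variation among pairs when doubted arrays were left out (limma adjusted p = 0.0492) and not with all arrays (adjusted p = 0.671). The third Sv2b probe set had a mean over the pairs of -0.05 (adjusted p = 0.812). Sv2a, the widely expressed SV2, differed by 0.12, 0.05, -0.04, 0.10 and 0.02 in HAD1, HAD2, P, AA and sP.

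Rab3c, one of 4 vesicle GTPases of the Rab3 family, differed in opposite directions in the related pairs. On the 9 HAD1 arrays it ran from 7.80 through a median of 8.49 to 9.10, and on the 10 LAD1 arrays from 8.29 through 8.99 to 9.61. In the other pair the HAD2 arrays ran from 7.79 through 8.12 to 8.82 and the LAD2 arrays from 7.38 through 7.72 to 8.54. The ranges overlapped in both pairs, with 4 of 9 HAD1 arrays below every LAD1 array. The difference was -0.53 (SE 0.17; limma adjusted p = 0.181) in HAD1 and 0.36 (SE 0.15; adjusted p = 0.215) in HAD2, so neither passed by itself. In the fit of all groups together the HAD1 difference passed (adjusted p = 0.0263). P, AA and sP differed by 0.06, -0.08 and 0.03.

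The variation of Rab3c among the 5 pairs passed (F = 4.90; limma adjusted p = 0.0322) and passed without the doubted arrays (adjusted p = 0.00631). It did not pass with the GAPDH ratio as a covariate (adjusted p = 0.0703) or with the replicate number as a block (adjusted p = 0.0553), nor with 1 of 11 arrays left out: HAD1 21, HAD1 22, HAD1 23, HAD1 25, LAD1 33, LAD1 34, LAD1 35, LAD1 40, HAD2 5, HAD2 6 or LAD2 16. Over all 96 such fits the adjusted p ran from 0.00978 to 0.086. Of the 20 genes next to Rab3c on chromosome 2, 0 were called by limma in either pair. Rab3a, the main neuronal Rab3, differed in its brightest probe set by at most 0.04 in any pair, and in a second probe set by 0.45 (SE 0.18; adjusted p = 0.861) in P, which was 0.49 without the doubted arrays (adjusted p = 0.116).

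The sequences before the transcription starts of Rab3c and Stx11 are shown as far as the RefSeq promoter table of GRCr8 holds them, which gave 44 of the 53 genes. Rab3c is shown for its variation among pairs and Stx11 as the member nearest to a call in HAD1, while the sequence of Syt12 was not among the 44. Each run is the 250 bases upstream of the start, 5' to 3' on the strand of the gene, and capitals mark GC boxes, GGGCGG or its reverse complement.
Rab3c, chr2:43575944-43576193, minus strand: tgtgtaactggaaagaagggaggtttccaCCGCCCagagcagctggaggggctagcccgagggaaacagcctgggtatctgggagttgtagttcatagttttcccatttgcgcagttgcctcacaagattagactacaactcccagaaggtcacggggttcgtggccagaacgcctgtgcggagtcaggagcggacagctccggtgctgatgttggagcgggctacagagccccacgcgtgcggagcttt
Stx11, chr1:9140220-9140469, minus strand: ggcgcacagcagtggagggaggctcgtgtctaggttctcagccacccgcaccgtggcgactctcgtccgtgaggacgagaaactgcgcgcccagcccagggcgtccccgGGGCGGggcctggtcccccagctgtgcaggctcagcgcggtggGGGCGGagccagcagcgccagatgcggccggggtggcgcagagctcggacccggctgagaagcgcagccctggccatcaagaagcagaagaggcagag
The Rab3c window held 1 GC box and was 58.0% G and C, and the Stx11 window held 2 GC boxes and was 71.6% G and C. The other motifs searched, named in the next paragraph, were in neither window on either strand.

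Over the 44 promoters of member genes, 29 held a GC box in these 250 bases (65.9%), compared with 30.5% of the 33469 promoters in the table. Both strands were searched. The TATA motif, TATAAA, was found in 1 of 44 (2.27%), compared with 12.9% of all. The E box, CACGTG, was in 4 of 44 (9.09%, against 5.59% of all). The CRE core, TGACG, was in 14 of 44 (31.8%, against 18.2%). The median G and C content was 61.2% in the member promoters and 51.2% in all. These shares describe the letters in the windows, and no test was made. Each member gene gave 1 promoter, while the 33469 were neither reduced to 1 per gene nor limited to measured genes. The shares therefore compare unlike sets. By position, 14 of the 53 genes (26.4%) lie on chromosome 1, against 12.6% of all 14217 genes.

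The pathway around the members was followed with 87 further genes of vesicle priming, filling and recycling, of which 78 were measured. In HAD2 and LAD2, 1 of 78 was higher and 2 were lower, a share no larger than the 4.09% of all probe sets called in that pair. Rims2, an active zone scaffold that binds Rab3, was higher by 0.36 (SE 0.10; limma adjusted p = 0.0336). Lin7a, a scaffold that joins adhesion proteins to the release machinery, was -0.54 (SE 0.08; adjusted p = 9.09e-05), and Sh3gl2, endophilin A1, which shapes membrane in vesicle recycling, was -0.39 (SE 0.09; adjusted p = 0.00901). In the other pairs 0 of 78 were called by limma with all arrays. Without the doubted arrays Lin7a was also called in HAD1 and LAD1, at -0.36 (adjusted p = 0.0484), against -0.30 (adjusted p = 0.184) with all arrays. For the mean of the 5 pairs Lin7a passed, at -0.20 (SE 0.05; adjusted p = 0.0198), with rats as the replicates. With the 5 line pairs as the replicates the call was lost, and limma called 0 of 31042 probe sets for the mean (1039 at an unadjusted p under 0.05).

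Of the 78, 4 varied among pairs by limma's F test, Rims2, Rab27b, Atp6v0a1 and Nrxn3, beside 4.54% of all probe sets. In the fit with 1 probe set per gene, 543 of 14217 varied. The rab GTPase Rab27b, which works with Rab3 in docking, was -1.55 (SE 0.41) for P against NP. The AA difference was -0.53 (SE 0.18) and that of sP was 0.40 (SE 0.16), none past the test within a pair. Without the doubted arrays Rab27b was called in each of these pairs. The differences were -2.23 (limma adjusted p = 7.81e-05), -0.84 (adjusted p = 0.00908) and 0.68 (adjusted p = 0.0079). It was also called for the mean of the 5 pairs, at -0.47 (adjusted p = 0.000137). Doubted arrays were chosen by probe sets that separate the lines. Whether Rab27b was among these was not checked, so its calls may follow partly from that choice. Nrxn3, a presynaptic adhesion protein, differed by -0.37 in HAD1 and 0.27 in HAD2, the same order of signs as Rab3c, and passed in neither pair.

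**Figure D4:**
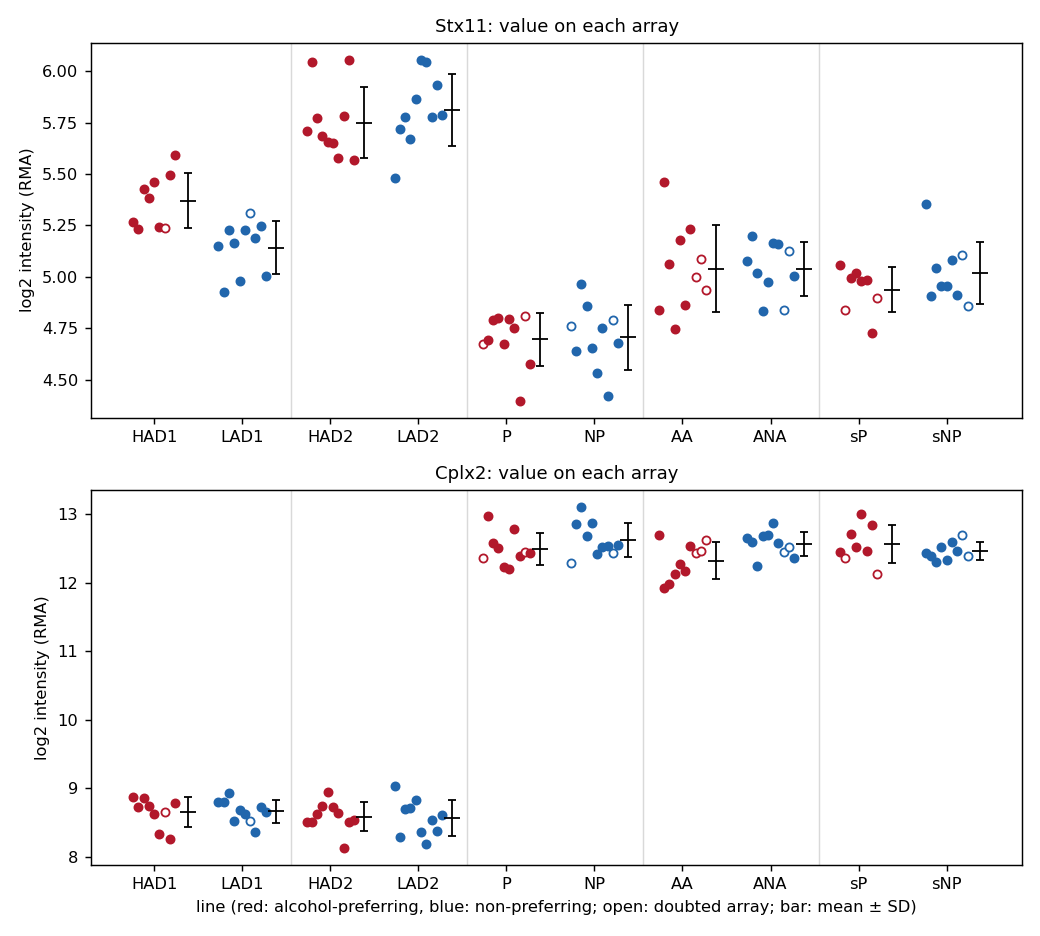
Log2 intensity of Stx11 (upper panel) and of the Cplx2 probe set (lower panel) on each array by line, drawn as in the plot of Syt12 and Rab3c. For Stx11 HAD1 lies at 5.37 and LAD1 at 5.14 with overlapping ranges; for Cplx2 the 4 HAD and LAD lines lie between 8.57 and 8.66 and the other 6 lines between 12.33 and 12.63.

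Of the 53 genes, 21 were read by more than 1 probe set. All probe sets of a gene had the same sign for 12 of 21 genes in HAD1, 10 in HAD2, 13 in P, 18 in AA and 11 in sP. Of the 80 probe sets, 50 were in the brighter 50% of the platform by their mean over all arrays. The median SD within a line ran from 0.15 in LAD2 to 0.22 in P.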

How the data were processed

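Labelled cRNA came from 25 ng of RNA per rat after 2 rounds of amplification, per the labels' protocols. The deposited table holds log2 intensities that the authors made with RMA, per the submitters' processing notes. The sources used here do not name the RMA release or the arrays it ran on. The 57 control probe sets were left out, and 0 value columns lacked a sample. No detection calls were used, so a dim probe set is not told apart from background, and precision is limited by how many arrays a line has.

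For each pair, only its arrays entered the fit, made with limma 3.58.1 in R 4.3.3 (lmFit, eBayes with an intensity trend). Tests were two-sided and adjusted by Benjamini-Hochberg over 31042 probe sets. The average of the 5 differences, and an F test of how they vary, came from 1 model of the 10 lines. Alternatives were array weights, the brighter 50%, 1 probe set per gene, median centring, the GAPDH ratio, a replicate block, the line pair as replicate, each array left out and the doubted arrays left out. The code was tested on simulated data.

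Members, roles, lists and the naming rule were chosen with earlier results of these data known. Named were members past a test, the 3 smallest p per pair, the 3 smallest for the mean in each direction and for variation, and 12 core genes by their brightest probe set, of which 2 are not analysed here. Syn2, Syt17 and further Sv2b and Stx1a values were chosen after their values were seen, and pathway genes were named where called. Names and chromosomes came from the platform annotation and a GRCr8 RefSeq table.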

Additional observations from a re-analysis of the deposited data

Results flagged for a closer look

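The differences of Syt12 and Rab3c varied among the 5 pairs by limma's F test, at F = 7.003 and F = 4.90; their values are given above. Of 196 sets of arrays of a line checked for single outlying arrays among the named probe sets, 17 had a lone array far from its group, and chance gives about 1 in 20.

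In the HAD and LAD lines these were Syp on HAD1 26 at 12.05 (next 12.29), Vamp2 on LAD1 40 at 12.60 (next 12.05), Stx18 on LAD1 40 at 10.34 (next 10.03), Cplx1 on LAD1 39 at 13.56 (next 14.12) and Syn1 on LAD2 11 at 10.34 (next 10.49). In P they were Vamp5 on P 1 at 4.26 (next 4.45), Stx1a on P 9 at 10.79 (next 9.14) and Syn1 on P 9 at 11.99 (next 11.37), the last 3 on doubted arrays. In AA and ANA they were Sv2a on AA 1 at 12.46 (next 12.07), Sv2a on ANA 20 at 11.48 (next 11.82), Syt9 on ANA 6 at 6.25 (next 5.998) and Rab3a on ANA 6 at 12.93 (next 12.76). In sP and sNP they were Stx1a on sP 4 at 9.41 (next 8.37), Sv2b on sP 4 at 5.56 (next 5.17), Stx11 on sNP 1 at 5.35 (next 5.10), and the 2 Vamp2 probe sets on sNP 7 at 12.19 (next 12.27) and sNP 4 at 5.26 (next 5.55).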

How the results depend on the processing

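Counts of called members moved by 1 or a few probe sets. In HAD1 and LAD1 the count of 0 became 1 in the fit of all groups together (Rab3c), 2 with array weights (Stx11 and Stx1a), 1 without the doubted arrays and 1 when arrays were judged on the other chromosomes (Stx11 in both); leaving out single arrays gave 0 to 1. In HAD2 and LAD2 it became 2 with the GAPDH ratio as a covariate, with Stx18 added. For the mean, leaving out single arrays gave 0 to 1 (Syt12). For variation among pairs the count of 2 became 5 with array weights, 1 with the GAPDH covariate, and 1 to 2 when single arrays were left out.

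With the replicate number as a block, the count for variation was 1, since Rab3c did not pass (adjusted p = 0.0553), and the counts in P and NP, in sP and sNP and for the mean were 0. The numbers are not known to pair animals: same-numbered arrays correlated in their deviations from -0.11 to 0.51 in P and NP and from -0.18 to 0.77 in sP and sNP. Over the named differences, 128 alternatives changed the sign of a difference that passed in neither setting.

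Over all probe sets, the 299 called in HAD1 and LAD1 became 4 when LAD1 36 was counted as HAD1 and 180 without it. The counts of members in these settings, and without sP 2 and sNP 2, were 0 as before, which says little about stability because a count of 0 cannot fall. Without a sequence check of the probes, a base difference between lines under a probe cannot be told apart from a difference in expression.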

Other observations

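Across pairs, a Cplx2 probe set and a Rab3a probe set stood apart from the other members in the HAD and LAD lines. The Cplx2 probe set had a mean of 8.62 over the 39 HAD and LAD arrays and 12.51 over the other 57, a difference of -3.89. Line means were 8.57 to 8.66 and 12.33 to 12.63, so no line lay between. The second Rab3a probe set had 8.32 and 10.59, a difference of -2.27, while the brightest Rab3a probe set had 12.53 and 12.57. A difference beyond 2 log2 units was seen for 2 of 80 members (2.5%) and 614 of 31042 probe sets (1.98%), and beyond 1 unit for 13 members (16.2%) and 5212 probe sets (16.8%). The GAPDH 3' to 5' ratio differed between the same lines, and its part in these levels was not tested.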
